A study of Homo sapiens with 6 samples.

Results

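IFI6, ISG15, LGALS3BP and TNFAIP2 are 4 genes known as targets of interferon or of inflammatory cytokines. They were examined in IMR32, a human neuroblastoma line that carries extra copies of MYCN, after 24 h with sAKZ692 at 20 µM or with the solvent DMSO alone. The submitters describe sAKZ692 as a small molecule that activates NRF2, a transcription factor of the oxidative stress response. The 4 genes were taken by symbol from a table of 11351 genes and all were found. RNA of each group was sequenced in 3 libraries, all from the same line, and the labels name no interferon or other cytokine among the treatments. Values are TPM, which account for transcript length, so levels of different genes can be compared. The 4 genes were picked because of their difference between sAKZ692 and DMSO in these same libraries. That difference is therefore described without a p-value, and tests are given only for other genes.

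Interferons are cytokines that bind receptors linked to the kinases JAK1 and TYK2 for type I interferon. These kinases phosphorylate STAT proteins, among them STAT2, which with IRF9 form a complex that binds a DNA motif called the interferon-stimulated response element, or ISRE, in front of its target genes. ISG15 encodes a ubiquitin-like protein that is attached to other proteins, IFI6 a small membrane protein known for blocking cell death and virus replication, LGALS3BP a secreted glycoprotein that binds galectins, and TNFAIP2 a protein induced by tumour necrosis factor, related to exocyst subunits and known for the formation of membrane nanotubes between cells.

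The promoter windows of the 4 genes are shown as a description. Their motifs were not used directly in choosing the genes. The genes are known as targets of interferon or other cytokines, however, so ISRE matches are not independent of what was known of them. They come from RefSeq on GRCh38.p14, matched by symbol for all 4 genes, and run from 250 bases before the annotated start to 50 bases from it. Each is written 5′ to 3′ on the gene's strand. Capitals mark matches to the ISRE core GAAANNGAAA and to the core of the antioxidant response element TGACNNNGC, the element to which NRF2 binds with small MAF proteins. ISG15 lies at chr1:1013247-1013546 (plus strand), IFI6 at chr1:27672143-27672442 (minus strand), LGALS3BP at chr17:78979874-78980173 (minus strand) and TNFAIP2 at chr14:103123211-103123510 (plus strand).
ISG15: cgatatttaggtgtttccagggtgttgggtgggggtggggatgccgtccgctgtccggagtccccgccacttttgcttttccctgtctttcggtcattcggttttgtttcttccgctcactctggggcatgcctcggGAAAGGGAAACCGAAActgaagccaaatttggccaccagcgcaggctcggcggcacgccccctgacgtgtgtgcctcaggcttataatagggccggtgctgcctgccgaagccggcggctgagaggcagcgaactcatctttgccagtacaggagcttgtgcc
IFI6: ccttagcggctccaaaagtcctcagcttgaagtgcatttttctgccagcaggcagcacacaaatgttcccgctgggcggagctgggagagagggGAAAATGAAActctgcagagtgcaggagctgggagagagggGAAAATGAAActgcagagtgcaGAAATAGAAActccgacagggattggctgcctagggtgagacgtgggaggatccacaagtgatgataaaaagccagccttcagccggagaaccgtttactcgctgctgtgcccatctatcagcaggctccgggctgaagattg
LGALS3BP: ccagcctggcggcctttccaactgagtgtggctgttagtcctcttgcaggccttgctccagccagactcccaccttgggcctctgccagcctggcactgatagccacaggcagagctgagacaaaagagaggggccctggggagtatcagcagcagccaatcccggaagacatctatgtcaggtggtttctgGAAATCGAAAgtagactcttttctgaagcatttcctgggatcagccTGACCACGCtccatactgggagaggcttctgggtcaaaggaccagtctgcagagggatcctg
TNFAIP2: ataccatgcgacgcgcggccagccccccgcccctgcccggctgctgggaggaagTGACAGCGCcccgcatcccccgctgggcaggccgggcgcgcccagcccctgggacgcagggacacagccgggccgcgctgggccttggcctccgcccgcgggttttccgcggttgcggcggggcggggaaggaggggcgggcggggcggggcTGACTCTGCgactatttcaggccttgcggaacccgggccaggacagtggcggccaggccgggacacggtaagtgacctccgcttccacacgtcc

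The ISRE core was present in the windows of ISG15, IFI6 and LGALS3BP and had 0 matches in that of TNFAIP2, searching both strands. IFI6 held 3 matches, of which the farthest began at base -156 and the nearest ended at base -84 relative to the start. ISG15 held 2 matches that overlap each other, together spanning bases -113 to -98. LGALS3BP held 1 match, from base -58 to base -49. Among all 35116 RefSeq windows of this length, 3.57% held at least 1 ISRE match, 0.259% at least 2 and 0.037% at least 3. The antioxidant response element core, present in 13.3% of all windows, matched 1 time in LGALS3BP, at bases -12 to -4, and 2 times in TNFAIP2, at bases -196 to -188 and -44 to -36, with 0 matches in ISG15 and IFI6. The gamma-activated site TTCNNNGAA, a motif of STAT dimers, and the NF-kB motif had 0 matches in the 4 windows, and 7.66% and 11.3% of all windows hold them. A match describes the letters of this window only.

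**Figure D1:**
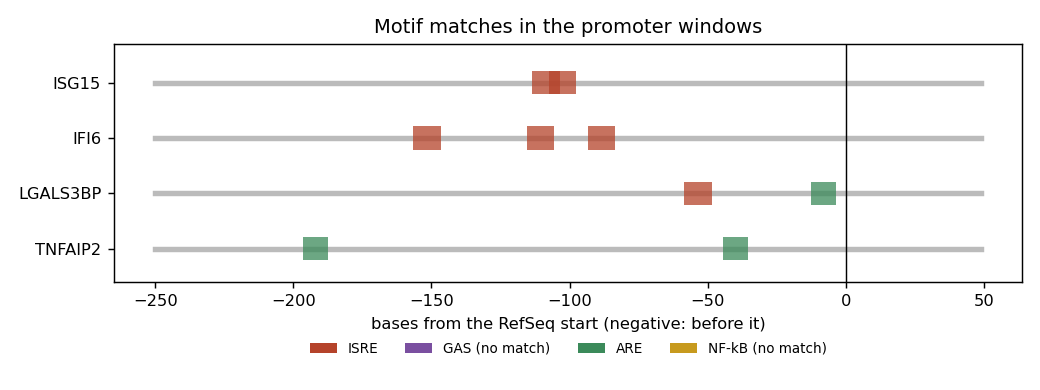
Positions of motif matches in the promoter windows of the 4 genes, in bases from the RefSeq start on the horizontal axis, with 1 row per gene; grey bars are the windows and coloured blocks the matches. IFI6 shows 3 ISRE blocks, ISG15 2 overlapping ones, LGALS3BP 1 ISRE and 1 antioxidant response element (ARE) block, and TNFAIP2 2 ARE blocks.

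LGALS3BP was the most abundant of the 4 genes and the one with the largest difference. It was at 58.3, 45.5 and 126 TPM in replicates 1, 2 and 3 of sAKZ692, against 10.3, 11.7 and 10.3 TPM in replicates 1, 2 and 3 of DMSO. The groups did not overlap, and the lowest sAKZ692 library stood 3.89 times above the highest DMSO library. Replicate 3 of sAKZ692 was far above the other treated libraries, and the treated range spanned 2.76-fold, against 1.14-fold in DMSO. The means were 76.5 ± 43.0 TPM with sAKZ692 and 10.8 ± 0.813 TPM with DMSO (SD, n = 3 each), a ratio of mean TPM of 7.11, or 4.82 without replicate 3 of sAKZ692. On log2(TPM + 1) the difference was 2.58, the rise ranked 5 among the 9137 genes tested, and 2.16 without that library. With sAKZ692, LGALS3BP was above 83.7% of the tested genes in mean level, and with DMSO above 36.8%.

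IFI6 was next in level. It was at 20.9, 16.5 and 13.0 TPM in replicates 1, 2 and 3 of sAKZ692, against 7.34, 6.54 and 7.56 TPM in the DMSO libraries. All treated libraries were above all DMSO libraries, and here replicate 3 of sAKZ692 was the lowest of its group. The means were 16.8 ± 3.96 TPM with sAKZ692 and 7.15 ± 0.538 TPM with DMSO (SD, n = 3 each), a ratio of 2.35 and a log2(TPM + 1) difference of 1.10. In GENCODE release 29 an antisense gene overlaps the span of IFI6 and 2 overlap that of ISG15, while RefSeq lists no overlap for either. The use of strand in the counting is not given and overlap of exons was not checked. Whether reads are shared with the antisense genes is therefore unknown.

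ISG15 was expressed at a low level. It was at 5.85, 4.63 and 4.29 TPM in replicates 1, 2 and 3 of sAKZ692, against 1.81, 2.61 and 2.35 TPM in the DMSO libraries. The groups did not overlap, and replicate 3 of sAKZ692 was again the lowest treated library. The means were 4.92 ± 0.821 TPM with sAKZ692 and 2.26 ± 0.412 TPM with DMSO (SD, n = 3 each), a ratio of 2.18. The log2(TPM + 1) difference was 0.86 and shrank to 0.44 after quantile normalization. Only 16.6% of the tested genes had a lower mean with sAKZ692 and 11.7% with DMSO.

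TNFAIP2 was the least abundant. It was at 2.36, 5.01 and 2.01 TPM in replicates 1, 2 and 3 of sAKZ692, against 1.39, 0.841 and 0.816 TPM in the DMSO libraries. The groups did not overlap, but the lowest treated library was 1.45 times the highest DMSO library, the smallest such gap of the 4 genes. Replicate 2 of sAKZ692 was the high one, at 4.93 times the DMSO mean, where replicates 1 and 3 were at 2.32 and 1.98 times. The means were 3.13 ± 1.64 TPM with sAKZ692 and 1.02 ± 0.327 TPM with DMSO (SD, n = 3 each), a ratio of 3.08, or 2.15 without replicate 2 of sAKZ692. The log2(TPM + 1) difference was 0.98, and 0.67 without that library. In RefSeq the non-coding gene LINC00677 overlaps the span of TNFAIP2, while GENCODE release 29 lists no overlap. Whether reads are shared with it is unknown as well.

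**Figure D2:**
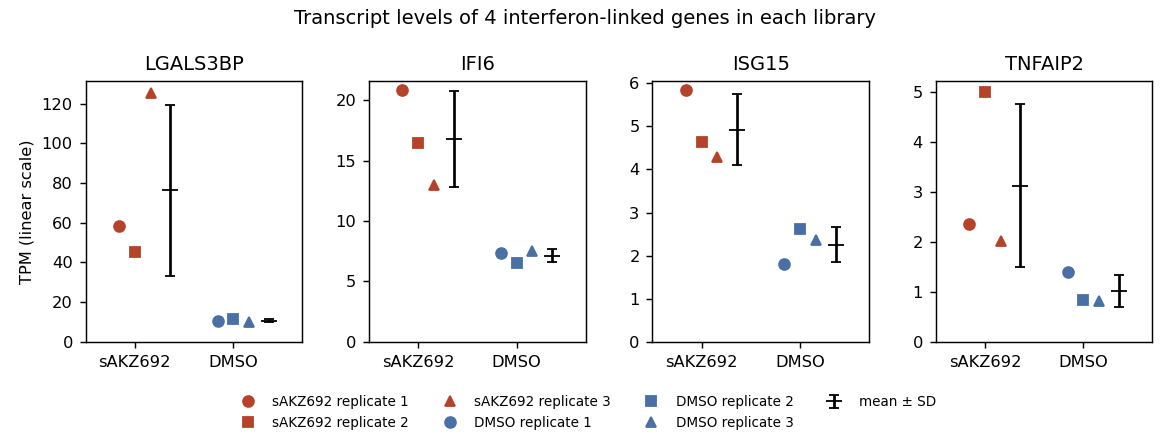
TPM on a linear axis for LGALS3BP, IFI6, ISG15 and TNFAIP2, with 1 marker per library, sAKZ692 on the left and DMSO on the right of each panel; bars give the mean ± SD of 3 libraries. The highest treated library is replicate 3 for LGALS3BP, replicate 1 for IFI6 and ISG15, and replicate 2 for TNFAIP2.

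The order of mean level, LGALS3BP, IFI6, ISG15 and TNFAIP2, was the same in both groups. With DMSO no neighbours in this order overlapped. With sAKZ692, ISG15 and TNFAIP2 overlapped, since TNFAIP2 reached 5.01 TPM in replicate 2 and ISG15 was at 4.29 TPM in replicate 3. All 4 genes had a mean of at least 1 TPM in each group, so they passed the filter on low values in either. In the whole table, the lowest treated library was above the highest DMSO library in 35.9% of the tested genes, and nothing is read from the 4 genes on that count because they were chosen on this contrast.

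The 4 genes differed in which treated library was high. IFI6 and ISG15 had the most similar profiles, with a root mean square distance of 0.21 between their log2(TPM + 1) values over the 6 libraries, each centred on its own mean. Among the treated libraries both were highest in replicate 1 and lowest in replicate 3. The distance of TNFAIP2 was 0.36 to IFI6 and 0.42 to ISG15, and that of LGALS3BP to the other 3 genes was between 0.95 and 1.08. Among all other tested genes, the profiles nearest to IFI6 were those of CDK18, LGALS3 and CRB1 (distances 0.056, 0.060 and 0.073), nearest to ISG15 those of BTN2A2, SMIM14 and EPB41L1 (0.087, 0.089 and 0.091), nearest to LGALS3BP those of JUP, MAPT and CUX2 (0.10, 0.27 and 0.28) and nearest to TNFAIP2 those of MAFIP, UNKL and JADE2 (0.17, 0.18 and 0.18). LGALS3, whose profile lay next to that of IFI6, encodes galectin-3, a partner of the LGALS3BP protein.

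Replicate 3 of sAKZ692 stood apart in the whole table as well. On log2(TPM + 1) across the tested genes (genes, not replicates), its r with the other treated libraries was 0.971 to 0.972. That between replicates 1 and 2 of sAKZ692 was 0.992, that of these 2 with DMSO libraries 0.972 to 0.976, and DMSO libraries gave 0.994 to 0.995 among themselves. Of 12 tested neuroblastoma markers 2 were higher (16.7%) and 0 lower, beside 24.1% and 8.5% of all tested genes. These 2 were CHGB, a granin of secretory granules, at 54.7 ± 8.21 TPM with sAKZ692 and 26.3 ± 0.977 TPM with DMSO (limma adjusted p = 0.0011), and ELAVL4, a neuronal RNA-binding protein, at 372 ± 63.9 and 249.9 ± 12.6 TPM (0.011, or 0.054 without DMSO replicate 3; SD, n = 3 each). In replicate 3 of sAKZ692, HAND1, DDC and TH were at 50.4, 70.8 and 5.24 TPM, above every other library, and CHGA at 183 TPM, below every other library. The 2 most abundant markers did not pass. MYCN was at 1432 ± 92.4 TPM with sAKZ692 and 1389 ± 41.9 TPM with DMSO (SD, n = 3 each), and HAND2 at 428 to 603 TPM with sAKZ692 and 451 to 472 TPM with DMSO. Of 16 leucocyte markers 7 had values, and 3 were tested, of which 0 were higher and 0 lower (CORO1A had the highest level). The summed level of the 7 was 39.8 to 68.2 TPM with sAKZ692 and 58.7 to 66.2 TPM with DMSO, none was at 0, and PTPRC, the gene of the pan-leucocyte antigen CD45, was at 0.395 to 0.762 and 0.368 to 0.842 TPM. The 8 fibroblast and mesenchymal markers with values, of 16 listed, summed to 879 to 1725 TPM with sAKZ692 and 1022 to 1064 TPM with DMSO. Of the 7 tested, 2 were higher (28.6%) and 0 lower, again beside 24.1% and 8.5% of all tested genes. PDGFRB was at 8.50 ± 0.908 TPM with sAKZ692 and 3.98 ± 0.467 TPM with DMSO (SD, n = 3 each; limma adjusted p = 0.0026), and THY1 at 81.9 ± 4.23 and 67.3 ± 2.98 TPM (0.024). The call of THY1 was lost without any 1 DMSO library (0.055 to 0.10), with the replicate block (0.051) and after median-ratio scaling (0.21). The high end of the sum was replicate 3, where VIM, the vimentin gene, reached 1334 TPM. VIM was higher by 0.13 on the log2 scale with all libraries and did not pass, and without replicate 3 of sAKZ692 it fell by 0.30 (limma adjusted p = 0.0014). This is the library with the highest LGALS3BP, and the part of either in the other was not tested.

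Beyond the 4 genes, other listed interferon-stimulated genes passed the test at a share near that of all tested genes. In limma, with Benjamini-Hochberg adjustment over 9137 genes and a threshold of 0.05, 24.1% of all tested genes were higher and 8.5% lower with sAKZ692. Of 76 listed interferon-stimulated genes other than the 4, 39 had values and 24 were tested. Of these, 5 (20.8%) rose, 1 fell and 18 did not pass, a share close to the background. The median log2 difference of the 24 was 0.31, beside 0.14 over all tested genes. Another 15 were under the filter, with no value above 2.39 TPM, and were not tested. All of these but PARP14 had a higher mean with sAKZ692 than with DMSO. The same share over all genes under the filter was not computed. The whole table leaned the same way, with a median log2 difference of 0.14 with no filter. Nothing is therefore read from the direction of these low genes. RNF213, a large ubiquitin ligase, rose to 15.7 ± 0.869 TPM with sAKZ692, against 7.79 ± 0.377 TPM with DMSO (SD, n = 3 each; limma adjusted p = 0.00096). ISG20, an exonuclease of viral RNA, was at 3.45, 4.28 and 2.62 TPM against 1.37, 0.499 and 0.704 TPM (limma adjusted p = 0.0060). IFITM3, a membrane protein that restricts virus entry, was at 18.0, 13.6 and 11.3 TPM against 7.68, 8.55 and 6.95 TPM (limma adjusted p = 0.011), a call lost without DMSO replicate 3 (0.052) and after quantile normalization (0.060).

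SHISA5 and IFITM2 also rose. SHISA5 was at 101 ± 3.89 TPM with sAKZ692 and 73.3 ± 1.21 TPM with DMSO. IFITM2 is a near copy of IFITM3 with which reads may be shared, and its call was lost without any 1 library other than replicate 3 of sAKZ692 (limma adjusted p between 0.079 and 0.13), with no filter on low values (0.052), after median-ratio scaling (0.057) and with quantile normalization (0.17). CNP, a phosphodiesterase, fell to 67.2 ± 2.78 TPM with sAKZ692, against 98.7 ± 0.506 TPM with DMSO (SD, n = 3 each; limma adjusted p = 0.0015). The most abundant listed genes, LY6E and IFI44, did not pass, with 233 ± 28.5 TPM against 268 ± 9.14 TPM and 134 ± 53.9 TPM against 162 ± 11.4 TPM, though LY6E fell after median-ratio scaling (limma adjusted p = 0.029). Effectors of the response differed widely in level. The RNA editor ADAR, picked after its values were seen, averaged 85.5 ± 1.08 TPM with sAKZ692 and 77.3 ± 5.15 TPM with DMSO (SD, n = 3 each) and did not pass. MX1, a GTPase that blocks virus replication, averaged 2.26 ± 0.262 TPM with sAKZ692 and 1.55 ± 0.307 TPM with DMSO and did not pass (limma adjusted p = 0.12), IFIT1 averaged 0.728 and 0.455 TPM and OAS1 0.434 and 0.171 TPM, both under the filter. The number of listed genes that rose was 4, 4 and 3 without replicates 1, 2 and 3 of DMSO. That was 16.7%, 16.7% and 12.5%, beside 13.8%, 13.3% and 13.3% of all tested genes. Without replicates 1, 2 and 3 of sAKZ692 4, 6 and 8 rose. These were 16.7%, 25.0% and 33.3%, beside 19.3%, 18.2% and 34.6%. With array weights 9 rose (37.5% beside 35.8%). After median-ratio scaling 4 did (16.7% beside 15.0%), and after quantile normalization 3 (12.5% beside 11.7%).

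**Figure D3:**
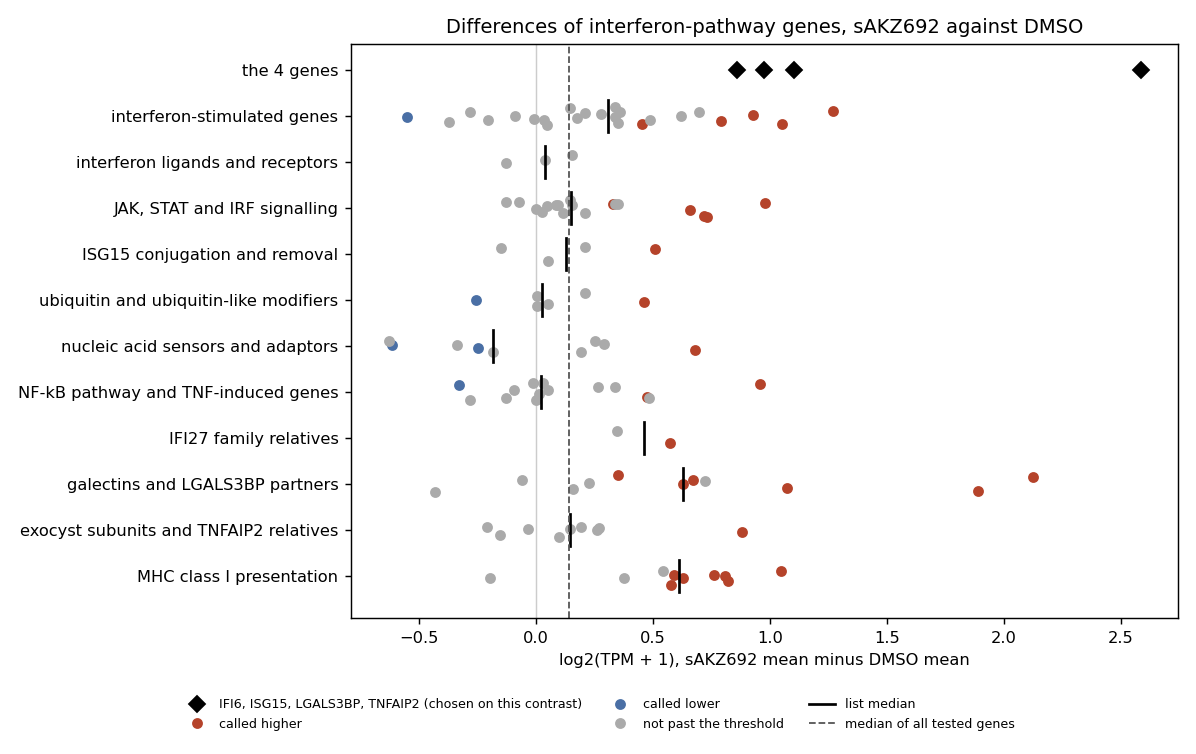
Differences between the sAKZ692 and DMSO means on log2(TPM + 1) for the tested genes of 11 lists, 1 row per list and 1 point per gene, with the 4 genes as black diamonds in the top row; short vertical lines are list medians and the dashed line is the median of all tested genes. The interferon-stimulated genes have a median of 0.31 and spread to both sides of 0, while the galectin and MHC class I rows have medians of 0.63 and 0.61.

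Genes carrying the ISRE core were also examined as a set defined by sequence alone. Of 6905 tested genes with a promoter window, the 4 genes left out, 245 held at least 1 ISRE match in at least 1 window. Of these 76 (31.0%) rose and 14 (5.71%) fell, beside 23.6% and 9.32% of the 6660 genes with no match. The share that rose was 41.2% against 33.9% without replicate 3 of sAKZ692, 18.4% against 13.2%, 20.0% against 12.6% and 17.6% against 12.9% without replicates 1, 2 and 3 of DMSO, and 19.6% against 14.3% after median-ratio scaling. These shares are a description with no test of their difference. With at least 2 matches in a window there were 19 tested genes, of which 6 (31.6%) rose and 1 (5.26%) fell, beside 24.1% and 8.5% of all tested genes. Without replicates 1, 2 and 3 of DMSO 4, 4 and 3 rose (21.1%, 21.1% and 15.8%) and 0, 1 and 0 fell. Of all tested genes 13.8%, 13.3% and 13.3% rose and 4.44%, 4.42% and 4.85% fell in these settings. The 7 called with all 6 libraries were named after their values were seen. They were ATF5, BBC3, CDIPT, IFITM3, B2M and TAPBP on the rising side and OAZ1 on the falling side. The call of CDIPT was lost without any 1 library other than replicate 3 of sAKZ692 (limma adjusted p between 0.069 and 0.086) and after median-ratio scaling (0.10), and that of OAZ1 without DMSO replicate 1 or 3 (0.062 and 0.064). IFIT5, an interferon-induced RNA sensor whose window held 3 matches and which was also picked after its values were seen, was not called, with a log2 difference of -0.09.

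Of the receptors and signalling genes upstream, STAT2 rose and its partner IRF9 did not pass. STAT2 was at 31.0, 28.7 and 37.7 TPM in replicates 1, 2 and 3 of sAKZ692, against 19.2, 18.3 and 19.6 TPM in the DMSO libraries, a log2 difference of 0.73 ± 0.11 (SE; limma adjusted p = 0.0034). IRF9 averaged 18.0 ± 3.35 TPM with sAKZ692 and 14.0 ± 2.06 TPM with DMSO (SD, n = 3 each; limma adjusted p = 0.13), and passed with array weights (0.021). Neither kinase of the type I receptor passed, with JAK1 at 20.5 ± 0.427 and 19.3 ± 1.31 TPM and TYK2 at 65.3 ± 4.92 and 56.5 ± 6.14 TPM, though TYK2 passed with array weights (0.042). Of 18 tested genes of JAK, STAT and IRF signalling, 5 (27.8%) rose and 0 fell, beside the background of 24.1% and 8.5%, with a median log2 difference of 0.15.

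The other 4 were JAK3, STAT5A, SOCS3, a feedback inhibitor of cytokine receptors, and STAT3. JAK3, a kinase of interleukin receptors, was at 1.86, 2.09 and 2.07 TPM with sAKZ692 and 0.513, 0.471 and 0.591 TPM with DMSO. The call of STAT3 (91.2 ± 9.50 against 72.0 ± 2.37 TPM) was lost without any 1 library other than replicate 3 of sAKZ692 (limma adjusted p between 0.068 and 0.096) and after median-ratio scaling (0.15). That of SOCS3 was lost without DMSO replicate 2 or 3 (0.059 and 0.054) and after quantile normalization (0.15), which also ended that of STAT5A (0.14). Receptor subunits did not pass. IFNAR2 was at 16.6 ± 4.60 and 14.5 ± 0.768 TPM, IFNGR1 at 13.0 ± 4.71 and 12.2 ± 0.521 TPM and IFNGR2 at 45.1 ± 8.20 and 48.8 ± 3.04 TPM with sAKZ692 and DMSO (SD, n = 3 each). The genes for the interferons themselves and IFNAR1 were not analysed here.

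For ISG15, the enzymes that attach it were unevenly expressed. UBA7, the activating enzyme, was under 1 TPM in every library, at 0.817, 0.350 and 0.541 TPM with sAKZ692 and 0.153, 0.277 and 0.410 TPM with DMSO. UBE2L6, the conjugating enzyme, was far more abundant, at 69.4 ± 5.61 and 59.7 ± 1.76 TPM (SD, n = 3 each), and did not pass with all libraries (limma adjusted p = 0.078), though it did without replicate 3 of sAKZ692 (0.0063). The main ligase HERC5, whose promoter window held 3 ISRE matches, was at 0.307, 0.488 and 2.09 TPM with sAKZ692, highest in replicate 3, and at 0.346, 0.490 and 0.216 TPM with DMSO. USP18, the protease that removes ISG15, averaged 0.997 ± 0.353 and 0.561 ± 0.0687 TPM.

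TRIM25, a ubiquitin and ISG15 ligase, was the 1 gene of the 4 tested in this list that rose (25.0%, beside 24.1% of all tested genes). It was at 32.8, 33.9 and 41.8 TPM with sAKZ692 and 25.8, 25.8 and 23.4 TPM with DMSO (limma adjusted p = 0.012, or 0.053 without DMSO replicate 3). Of the 6 ubiquitin-like modifiers tested, 1 rose (16.7%) and 1, SUMO3, fell (16.7%), beside 24.1% and 8.5% of all tested genes. The call of SUMO3 was lost without any 1 DMSO library (limma adjusted p up to 0.15), without replicate 1 or 2 of sAKZ692 (0.13 for each), with no filter (0.051), without the trend (0.083), with the replicate block (0.063) and after quantile normalization (0.061). RPS27A, which encodes ubiquitin fused to a ribosomal protein, stood at 1471 ± 112 TPM with sAKZ692 and at 1464 ± 74.7 TPM with DMSO (SD, n = 3 each). Ubiquitin genes share similar sequence, so this level is uncertain.

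**Figure D4:**
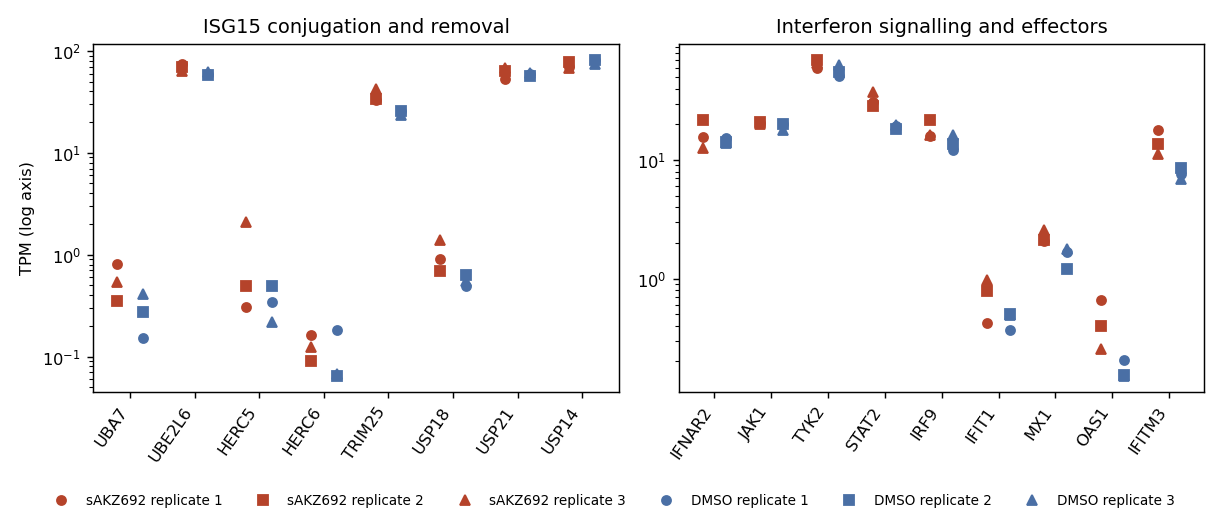
TPM on a log axis in each library for the ISG15 conjugation genes (left) and for receptor, signalling and effector genes of the interferon pathway (right); red markers are sAKZ692 and blue markers DMSO, with 1 shape per replicate number. UBA7, HERC6 and USP18 stay below 1.5 TPM in all libraries, as does HERC5 apart from replicate 3 of sAKZ692, and STAT2 and IFITM3 show treated libraries above DMSO.

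IFI6 belongs to a small family of interferon-induced membrane proteins with IFI27. IFI27 was at 0.816 ± 0.155 TPM with sAKZ692 and 0.546 ± 0.0626 TPM with DMSO, under the filter. IFI27L2 rose to 30.1 ± 3.47 TPM with sAKZ692, against 19.8 ± 1.25 TPM with DMSO (SD, n = 3 each; limma adjusted p = 0.0068). IFI27L1 was at 13.7 ± 3.22 and 10.4 ± 1.39 TPM and did not pass (limma adjusted p = 0.18), but did without replicate 3 of sAKZ692 (0.0060).

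Around LGALS3BP, the genes of galectin-1, galectin-3 and CD9 rose. Of 11 tested genes for galectins and for proteins that bind LGALS3BP or lie beside it in membranes and matrix, 6 (54.5%) rose and 0 fell, beside the background of 24.1% and 8.5%, with a median log2 difference of 0.63. CD9, a tetraspanin, was at 36.7, 39.5 and 29.7 TPM with sAKZ692 and 8.82, 6.33 and 6.85 TPM with DMSO (limma adjusted p = 0.00039). LGALS1, galectin-1, was at 4.25, 5.05 and 7.02 TPM with sAKZ692 and 0.543, 0.741 and 0.870 TPM with DMSO (limma adjusted p = 0.00089). Like LGALS3BP, it was highest in replicate 3. LGALS3 was at 10.4, 7.70 and 5.85 TPM and 3.13, 2.74 and 3.73 TPM (limma adjusted p = 0.0070), and was lowest there among the treated libraries. LGALSL, CD63 and CD82 also rose, the call of CD63 being lost after median-ratio scaling (0.059) and that of CD82 without DMSO replicate 1 or 2 (0.054 and 0.057) and after quantile normalization (0.19). The galectin-8 gene LGALS8 and CD81 did not pass, though CD81 fell after median-ratio scaling (0.037). The count of 6 was 5 to 7 across the 15 alternative settings. That was 45.5% to 63.6% of the tested genes of the list, beside 11.7% to 35.8% of all tested genes.

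For TNFAIP2, the receptor of its inducer rose and most other listed genes did not pass. Of 14 tested genes of the NF-kB pathway and of the response to tumour necrosis factor, 2 rose (14.3%), 1 fell (7.14%) and 11 did not pass, beside 24.1% and 8.5% of all tested genes, with a median log2 difference of 0.02. TNFRSF1A, the main receptor of tumour necrosis factor, rose to 46.5 ± 7.75 TPM with sAKZ692, against 23.3 ± 1.97 TPM with DMSO (SD, n = 3 each; limma adjusted p = 0.0021). TNFAIP3, a feedback inhibitor of NF-kB, stood at 1.40 ± 0.227 and 1.41 ± 0.414 TPM. The subunits RELA and NFKB1 were at 62.8 ± 4.65 and 63.3 ± 3.52 TPM and at 5.76 ± 0.269 and 6.38 ± 0.0975 TPM. NFKB1 did not pass (limma adjusted p = 0.39), but fell after quantile normalization (0.017). TNFAIP8L1 rose and NFKBIB fell. TNFAIP8L1 lost its call without DMSO replicate 1 or 2 (limma adjusted p = 0.059 for each) and after quantile normalization (0.44). NFKBIB lost its call without any 1 library other than replicates 1 and 3 of sAKZ692 (0.072 to 0.11) and with the replicate block (0.056). Of 9 exocyst subunits, their relatives and the small GTPases that act with them, EXOC6 rose to 9.25 ± 1.01 TPM, against 4.55 ± 0.0981 TPM with DMSO (limma adjusted p = 0.0021), and 8 did not pass, among them EXOC3. That is 11.1% higher and 0% lower, beside 24.1% and 8.5% of all tested genes.

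Genes of antigen presentation on MHC class I, which interferons are known to induce, included 7 that rose. Of 10 tested, 7 (70.0%) rose and 0 fell, beside the background of 24.1% and 8.5%, with a median log2 difference of 0.61. CANX, an ER chaperone that also folds many other proteins, rose to 349.6 ± 19.6 TPM with sAKZ692, against 197 ± 12.2 TPM with DMSO. B2M, the invariant light chain, was at 71.5, 79.1 and 109 TPM with sAKZ692 and 58.7, 53.1 and 57.1 TPM with DMSO (limma adjusted p = 0.021), a call lost without any 1 DMSO library (up to 0.080) and after median-ratio scaling (0.062). ERAP1, TAPBP and TAP2 were at 5.54 ± 0.657, 6.25 ± 0.435 and 2.13 ± 0.261 TPM with sAKZ692 and at 2.85 ± 0.210, 3.68 ± 0.163 and 0.576 ± 0.587 TPM with DMSO (SD, n = 3 each). Their calls were lost after quantile normalization (0.11, 0.15 and 0.096), and that of TAP2 also without DMSO replicate 1 or 3 (0.076 and 0.075). TAP1, the partner of TAP2 in the peptide transporter, was at 0.114 and 0.0432 TPM. The count of 7 was 4 or 5 without any 1 DMSO library and 6 to 8 without any 1 sAKZ692 library. It was 9 with array weights, 5 after median-ratio scaling and 3 with quantile normalization. Without any 1 DMSO library this was 40.0% to 50.0%, beside 13.3% to 13.8% of all tested genes. Without any 1 sAKZ692 library it was 60.0% to 80.0%, beside 18.2% to 34.6%. With array weights it was 90.0% beside 35.8%. After median-ratio scaling it was 50.0% beside 15.0%, and with quantile normalization 30.0% beside 11.7%.

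In the list of nucleic acid sensors and adaptors, the sensors with values, among them DDX58, CGAS and TLR3, were under the filter. The 9 genes tested were adaptors, signalling proteins and nucleases. Of these, 1 rose (11.1%), 2 fell (22.2%) and 6 did not pass, beside 24.1% higher and 8.5% lower of all tested genes. Their median log2 difference was -0.18. Without replicate 3 of sAKZ692 2 rose (22.2%) and 4 fell (44.4%), beside 34.6% and 14.5% of all tested genes. The median of the 9 was then 0.12, beside 0.15 over all tested genes. RNASEH2B was among those that fell (limma adjusted p = 0.0052). Without any other 1 library 1 fell (11.1%), beside 4.42% to 6.81% of all tested genes. TICAM1, the adaptor of Toll-like receptor 3, rose to 11.9 ± 0.540 TPM with sAKZ692, against 7.08 ± 0.493 TPM with DMSO (SD, n = 3 each; limma adjusted p = 0.0033). RNASEH2A, the catalytic subunit of an enzyme that removes RNA from DNA, fell to 95.4 ± 8.08 TPM, against 146 ± 1.81 TPM with DMSO (limma adjusted p = 0.0017). RNASEH2C, another subunit, was at 51.3 ± 0.894 and 61.1 ± 3.02 TPM, a call lost without any 1 library other than replicate 3 of sAKZ692 (limma adjusted p up to 0.11), with the replicate block (0.072) and in limma without the trend (0.054). Over all 11 lists, 30 of 107 tested genes rose (28.0%), 5 fell (4.67%) and 72 did not pass, close to the 24.1% and 8.5% of all tested genes. Across the 15 alternative settings 20 to 43 listed genes rose, or 18.7% to 40.2%, while 11.7% to 35.8% of all tested genes did. The shares were 18.7% and 11.7% after quantile normalization and 22.4% and 15.0% after median-ratio scaling. Without replicates 1, 2 and 3 of DMSO they were 20.6%, 20.6% and 19.6%, beside 13.8%, 13.3% and 13.3%. With no filter they were 20.3% and 20.1%, and without replicate 3 of sAKZ692 35.5% and 34.6%. The difference of these shares was not tested.

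Since the groups do not overlap for any of the 4 genes, leaving out a library cannot turn the sign of a difference, and the sizes are given as a description. Over the alternatives the difference on the log2 scale ranged from 2.16 to 2.88 for LGALS3BP, from 0.84 to 1.27 for IFI6, from 0.44 to 1.09 for ISG15 and from 0.60 to 1.46 for TNFAIP2. Under median-ratio scaling, which moved the median of all tested genes from 0.14 to 0.00, they were 2.44, 0.97, 0.75 and 0.88.

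**Figure D5:**
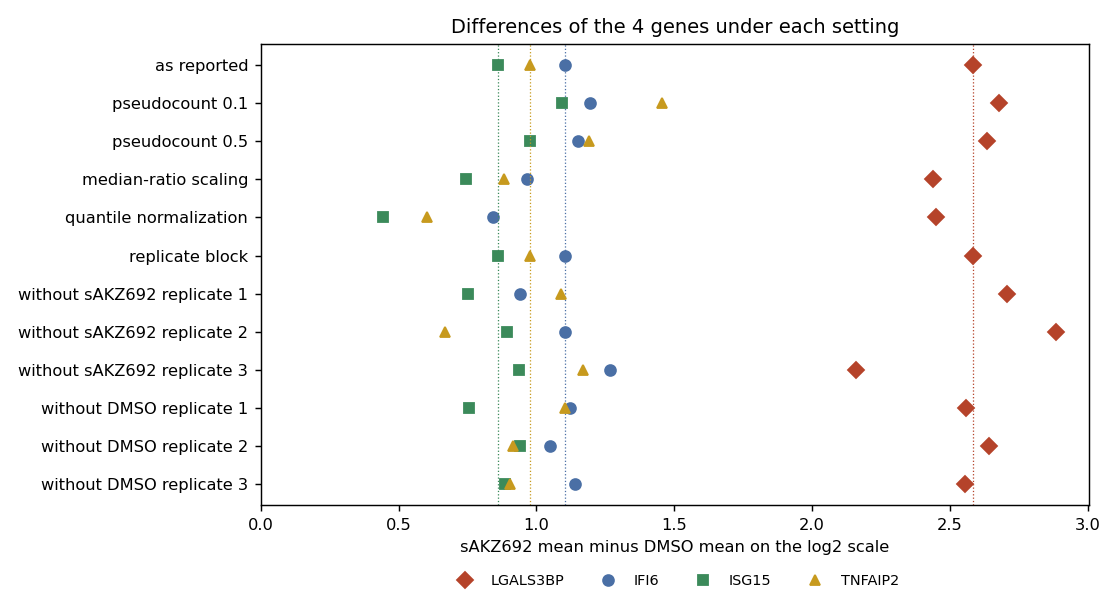
Difference between the sAKZ692 and DMSO means on the log2 scale for the 4 genes, 1 row per setting; dotted lines repeat the values as reported. LGALS3BP lies between 2.16 and 2.88 in each row, and ISG15 has its lowest value, 0.44, after quantile normalization.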

How the data were processed

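Per the labels' protocols, RNA purified on RNeasy columns was read single-end on a BGISEQ-500. The submitters' processing notes name kallisto. For its version, the annotation, the genome build and any strand setting, the entry is "not given in the sources used here". TPM values were deposited in 1 table, with genes in rows and the 6 libraries in columns named by title. TPM keeps no read counts, so the depth behind each value is unknown and counting errors could not be computed. Genes in the table made up 65.9% of the TPM total for sAKZ692 replicate 3 and 61.2% to 61.9% for every other library.

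A filter on the mean over all libraries (1 TPM or more) left 9137 genes. These were compared on log2(TPM + 1) in limma 3.58.1 (R 4.3.3), its variance trend switched on, with Benjamini-Hochberg adjustment and a threshold of 0.05. Differences on this scale understate the change of low genes. The labels do not say whether replicates were separate cultures, so p-values reflect only how far these samples differ, which may be technical. The step was tested on simulated data. The 4 genes, the 11 pathway and 3 marker lists and the rules were chosen with earlier results of these data known. Genes named were the 4, the 3 nearest profiles of each, up to 6 called genes and the 3 most abundant of each pathway list, the 2 most abundant of each marker list, and 37 given by name (30 present); a few others are named with their reason, and some genes of the lists are counted but not reported here by name. Alternatives were 2 other pseudocounts, a filter at a mean of 5 TPM or none, 2 scalings, limma without the trend or with array weights, a replicate block, and the omission of each library in turn. Same-numbered libraries of the groups had deviations correlating at 0.061, -0.025 and 0.042, so the numbers were not taken as pairs. Promoter windows were searched on both strands with Python 3.11.15.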

Additional observations from a re-analysis of the deposited data

How the results depend on the processing

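The sign of the differences of the 4 genes, which were chosen on this contrast and whose groups do not overlap, says nothing about stability. Among 11 alternatives the differences moved by more than the spread between replicates for IFI6 after quantile normalization (0.84 against 1.10), for ISG15 with a pseudocount of 0.1 (1.09) and after quantile normalization (0.44 against 0.86), and for TNFAIP2 with a pseudocount of 0.1 (1.46 against 0.98). The counts over all genes depended on the scaling, with 1369 higher and 1478 lower after median-ratio scaling and 1073 and 1188 after quantile normalization, against 2204 and 777 as deposited. Higher genes made up 48.1%, 47.5% and 73.9% of these calls. With array weights 1324 were lower. Leaving out 1 library gave 1213 to 3163 higher and 404 to 1321 lower genes, the largest counts being those without replicate 3 of sAKZ692. Listed pathway genes that fell numbered 9 after median-ratio scaling, 3 in limma without the trend, 8 with array weights and 2 to 8 without 1 library, against 5. With the replicate block, 1863 genes were higher and 636 lower, and 32 listed pathway genes rose and 2 fell. The cause of these shifts was not tested. Same-numbered libraries were not taken as pairs, but 3 libraries per group cannot settle whether they were prepared together. The depth of a library, unknown from TPM, limits what can be said of genes near 1 TPM.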

Other observations

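The genes next to each of the 4 on the chromosome were looked up in RefSeq on GRCh38.p14, taking up to 2 tested protein-coding genes on either side, a choice made after the values of the 4 genes were seen. Of all tested genes, 24.1% were higher and 8.5% lower with sAKZ692, so a called neighbour is not read as a local feature. Beside ISG15, AGRN, which encodes the matrix protein agrin, rose to 19.2 ± 1.78 TPM with sAKZ692, against 9.47 ± 1.23 TPM with DMSO (SD, n = 3 each, limma adjusted p = 0.0018). On its other side KLHL17 rose to 46.6 ± 5.17 TPM, against 33.4 ± 1.06 TPM (limma adjusted p = 0.010). C1orf159 did not pass (limma adjusted p = 0.26), but fell after quantile normalization (0.032). Beside LGALS3BP, ENGASE, an enzyme that releases sugar chains from glycoproteins, rose to 44.7 ± 3.04 TPM, against 23.9 ± 2.62 TPM with DMSO (limma adjusted p = 0.0014), and CYTH1 to 40.2 ± 0.652 TPM, against 31.1 ± 1.22 TPM (limma adjusted p = 0.0086). TIMP2 lies between LGALS3BP and CYTH1, on the side away from ENGASE. It was at 288 ± 12.9 TPM with sAKZ692 and 324 ± 13.2 TPM with DMSO and did not pass (limma adjusted p = 0.089). TIMP2 fell without replicate 3 of sAKZ692 (0.0098), with array weights (0.0080) and after median-ratio scaling (0.011). RBFOX3, beyond ENGASE, was at 73.4 ± 9.85 and 55.9 ± 6.83 TPM and did not pass (0.051), but rose without that library (0.0024), with the replicate block (0.035) and with array weights (0.0034). None of the 4 neighbours of IFI6 (WASF2, MAP3K6, FAM76A and STX12) or of TNFAIP2 (TRAF3, RCOR1, EIF5 and MARK3) passed limma's threshold, with adjusted p between 0.093 and 0.89. Of these, MARK3 rose without replicate 3 of sAKZ692 (limma adjusted p = 0.026) and EIF5 fell after median-ratio scaling (0.042).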
